A study of Mus musculus with 6 samples.

Results

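The miR-130 and miR-301 family was followed here in primary dermal fibroblasts as 4 mature microRNAs (miRNAs) of the mouse (mmu), mmu-miR-130a-3p, mmu-miR-130b-3p, mmu-miR-301a-3p and mmu-miR-301b-3p, which were taken by name from the 1907 miRNAs counted in each library. All 4 were found and all 4 passed the filter on low counts. The cells came from newborn mice on a mixed C57Bl/6 and FVB/N background and were sequenced at passage 1 after 6 days in culture. Both groups carried Col1a2Cre, a Cre recombinase whose Col1a2 promoter is active in fibroblasts. The 3 control (ctrl) libraries had the Cre alone, and the 3 caNrf2 libraries also had a constitutively active mutant of Nrf2, the transcription factor that drives antioxidant genes. By the series' design text, no mouse gave more than 1 library. The comparison asked which miRNAs differ in fibroblasts with active Nrf2.

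An miRNA guides the Argonaute protein to messenger RNAs that pair with its seed (bases 2 to 8), which lowers the stability and translation of those messages. The miR-130 and miR-301 family is known for repressing PPARG, a nuclear receptor that restrains fibrogenic activation, and has been linked to matrix stiffening in lung vessels, to fibrosis and to cell proliferation. Its members are processed from the 3p arm of their hairpins, while the 5p arm is usually degraded.

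The mature sequences show why the members count as 1 family (RefSeq, GRCm38.p6, 5′ to 3′, seed in capitals). The table gave a mature sequence for 3 of the 4 members, all but miR-301b-3p.
miR-130a-3p: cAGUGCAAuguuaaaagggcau
miR-130b-3p: cAGUGCAAugaugaaagggcau
miR-301a-3p: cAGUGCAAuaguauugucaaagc
The 3 sequences share their first 9 bases and the seed AGUGCAA, whose complementary letters in a target read UUGCACU. miR-130a-3p and miR-130b-3p, both 22 bases long, differ by the substitutions U11A and A13G (miR-130a-3p base first, counted from its 5′ end). miR-301a-3p, 23 bases long, differs from miR-130a-3p at 10 positions and from miR-130b-3p at 11, none of them in the seed.

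The members come from 3 places in the genome. Mir130a lies at chr2:84741115-84741178 on the minus strand, between genes in the GENCODE M21 annotation, with Gm19426 991 bases away as the nearest annotated gene. Mir301, the hairpin of miR-301a, lies at chr11:87113004-87113089 on the plus strand in an intron of Ska2, a gene of the spindle and kinetochore. Mir130b (chr16:17124061-17124142) and Mir301b (chr16:17124400-17124496) lie 258 bases apart on the minus strand, in an intron of 2610318N02Rik on the same strand. Their hairpins are printed because this pair shares a position. As described below, the 3p arms of both were called lower, but so was miR-130a-3p from chromosome 2. Capitals mark the seed letters, which occur once in each hairpin.
Mir130b: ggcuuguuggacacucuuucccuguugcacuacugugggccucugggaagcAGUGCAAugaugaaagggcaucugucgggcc
Mir301b: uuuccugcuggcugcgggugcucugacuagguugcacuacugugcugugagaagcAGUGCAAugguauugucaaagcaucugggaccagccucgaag
The miR-301a-3p sequence fits the Mir301b hairpin with 1 mismatch, and the miR-130a-3p sequence fits the Mir130b hairpin with 2. The sources used here do not give how reads that fit more than 1 hairpin were assigned, so the separate levels within each of these pairs are uncertain.

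Library totals ran from 10443268 to 28237159 counts, and 697 of the 1907 miRNAs had enough counts to be tested. Summed mesenchymal markers (6 miRNAs of the miR-143, miR-145, miR-199 and miR-214 groups) reached 129325 to 139903 CPM in the 6 libraries, where CPM are counts rescaled to 1 common library size, with library totals adjusted by TMM (trimmed mean of M-values). This sum was higher in every caNrf2 library, while 3 of the 6 markers were called lower. Summed leukocyte markers ranged from 34.0 to 66.2 CPM in ctrl and from 153 to 229 CPM in caNrf2 libraries, and 3 of 4 were called higher. Neural markers (5.68 to 9.13 against 11.6 to 13.8 CPM, the 1 tested of 2 called higher), erythroid markers (352 to 410 against 495 to 589 CPM, 1 of 3 called higher) and muscle markers (335 to 411 against 543 to 720 CPM, both of 2 tested called higher) were also higher. Endothelial markers (116 to 165 against 147 to 170 CPM, none of 2 called) and epithelial markers (1035 to 1865 against 1600 to 2121 CPM, none of 7 called) overlapped between the groups. None of these markers was at 0 in all libraries, and their part in the family's results was not tested.

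In caNrf2 fibroblasts 3 of the 4 family members were lower: miR-130b-3p fell by 34.7%, miR-301b-3p fell by 27.8% and miR-130a-3p fell by 20.4% (edgeR quasi-likelihood test, adjusted p under 0.05 over all 697 tested miRNAs). The other member, miR-301a-3p, did not pass the test. Of all tested miRNAs, 25.7% were called in either direction, 14.1% higher and 11.6% lower. The family's median log2 fold change was -0.40, against 0.03 for all tested miRNAs. In these bulk libraries, fewer cells of a type and less RNA per cell cannot be told apart.

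miR-130a-3p, the most abundant member and a miRNA studied in endothelial cells for promoting angiogenesis, had 2481, 2310 and 2640 CPM in ctrl libraries 1, 2 and 3 and 1974, 1972 and 1966 CPM in caNrf2 libraries 1, 2 and 3. Every ctrl library stood above every caNrf2 library, and the caNrf2 libraries were nearly equal. The log2 fold change was -0.33 ± 0.07 (SE, n = 3 per group; edgeR adjusted p = 0.00892). With 25758 to 54930 counts per library, the counting error was 0.427% to 0.623% of the value, below the ctrl spread (SD 6.67% of the mean) and above the caNrf2 spread (SD 0.205%). The call was kept when any 1 library was left out, with adjusted p from 0.00889 to 0.0413.

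miR-130b-3p, a member often reported as raised in tumours, had 293, 306 and 349 CPM in the ctrl libraries and 182, 246 and 191 CPM in the caNrf2 libraries. The groups did not overlap, and caNrf2 library 2 was the highest of its group. The fall was the largest of the family, at -0.61 ± 0.12 on the log2 scale (SE; edgeR adjusted p = 0.00457). It grew to -0.78 without caNrf2 library 2 and shrank to -0.54 without ctrl library 3, and the call was kept in both.

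miR-301b-3p, the neighbour of miR-130b-3p on chromosome 16, was the scarcest member, with 28.4, 25.5 and 31.9 CPM in ctrl and 20.8, 22.2 and 19.0 CPM in caNrf2 libraries. The groups did not overlap here either. Its change of -0.47 ± 0.14 on the log2 scale (SE; edgeR adjusted p = 0.0362) rested on 295 to 646 counts per library, with a counting error of 3.93% to 5.82%. The call was lost without ctrl library 1 (edgeR adjusted p = 0.0605), ctrl library 3 (0.136), caNrf2 library 1 (0.0767) or caNrf2 library 3 (0.155), while the log2 fold change stayed between -0.38 and -0.56 without any 1 library. It was also lost when every library was thinned to the smallest total (0.0554).

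miR-301a-3p, the Ska2-hosted member and the second in abundance, had 1529, 1154 and 1473 CPM in ctrl and 1142, 1426 and 1377 CPM in caNrf2 libraries. The groups overlapped, and each held 1 low library, ctrl library 2 and caNrf2 library 1. The log2 fold change was -0.07 ± 0.12 (SE; edgeR adjusted p = 0.686), with a 95% interval from -0.34 to 0.19. That interval includes the log2 fold change of miR-130a-3p but not those of the chromosome 16 pair, whose own errors are left out here. The 95% interval of miR-301b-3p, from -0.79 to -0.15, overlapped that of miR-301a-3p. The interval of miR-130b-3p ended at -0.3412, just below the lower end of that of miR-301a-3p at -0.3408. Without caNrf2 library 1 the value was 0.0091, and without ctrl library 2 it was -0.20 (edgeR adjusted p = 0.205).

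**Figure D1:**
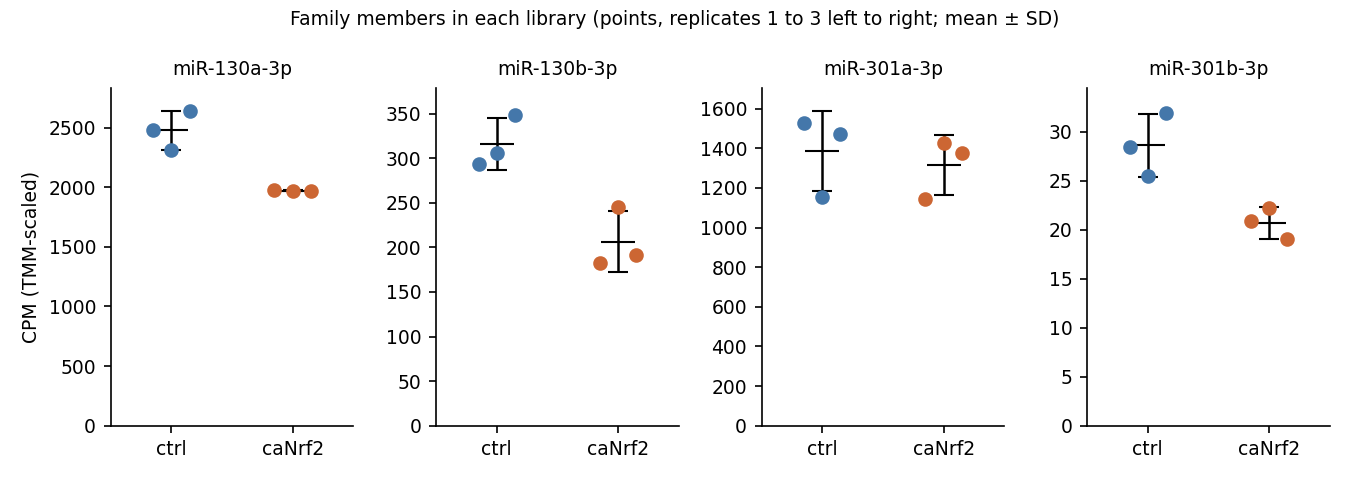
TMM-scaled CPM of the 4 members (y axis, from 0, own scale in each panel) in the 3 ctrl and 3 caNrf2 libraries, with points for libraries and black bars for mean ± SD. The groups stand apart for miR-130a-3p, miR-130b-3p and miR-301b-3p and overlap for miR-301a-3p.

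The groups thus did not overlap for 3 of the 4 members, all lower in caNrf2. Among all tested miRNAs the groups did not overlap for 41.6%, and for 17.9% with caNrf2 lower. The order of the levels was the same in all 6 libraries: miR-130a-3p, miR-301a-3p, miR-130b-3p, miR-301b-3p. No neighbours in that order overlapped in their ranges within a group, and the 3 members with a mature sequence here are 22 or 23 bases long, so their CPM are compared at near-equal length. Capture differences between sequences were not measured. In ctrl fibroblasts the members ranked 57, 69, 122 and 287 of 697 tested miRNAs by mean CPM. In caNrf2 fibroblasts miR-130a-3p and miR-301a-3p kept ranks 57 and 69, while miR-130b-3p stood at 148 and miR-301b-3p at 318.

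Together the 4 members held 0.431%, 0.379% and 0.442% of the counts in ctrl libraries 1, 2 and 3 and 0.345%, 0.365% and 0.352% in caNrf2 libraries 1, 2 and 3. The summed level was 4206 ± 366 CPM in ctrl and 3513 ± 178 CPM in caNrf2 fibroblasts (SD, n = 3), and the lowest ctrl library, library 2, stood above the highest caNrf2 library. No test was made of this sum. miR-130a-3p made up 59.0% ± 1.81 of the family's counts in ctrl and 56.2% ± 2.94 in caNrf2 (SD, n = 3). The share of miR-301a-3p was 32.8% ± 2.45 and 37.4% ± 2.55, with overlapping ranges. The share of miR-130b-3p was 7.53% ± 0.674 and 5.86% ± 0.733, and that of miR-301b-3p 0.679% ± 0.0276 and 0.589% ± 0.0484.

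**Figure D2:**
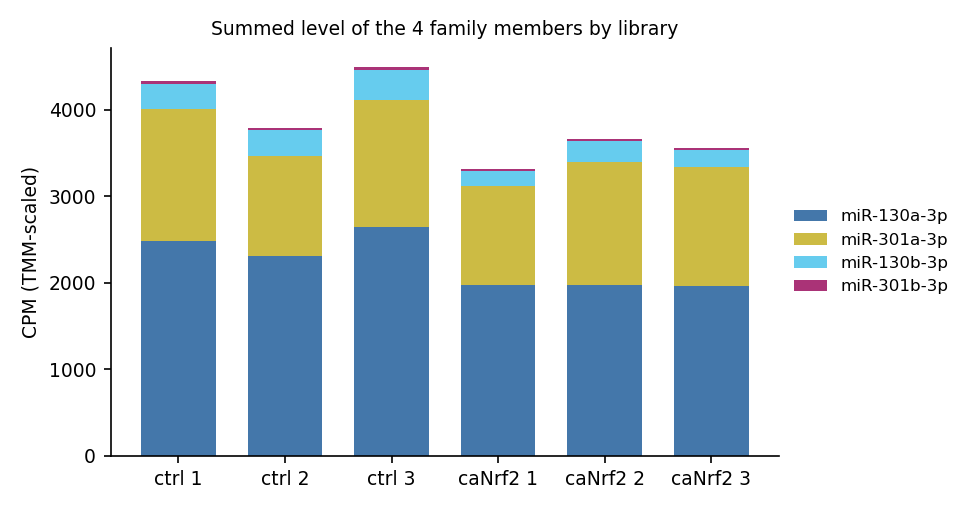
Stacked TMM-scaled CPM of the 4 members (y axis, from 0) in each of the 6 libraries (x axis). miR-130a-3p and miR-301a-3p form most of every bar, and the bars of the caNrf2 libraries, at 3319 to 3666 CPM, end below those of ctrl, at 3794 to 4494 CPM.

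Whether the members fell unequally was asked from count ratios within a library, which do not depend on the scaling. In all, 9 ratios were taken to an exact permutation test (two-sided, 20 assignments of the libraries), where 3 against 3 cannot give a p below 0.1. The ratio of miR-301b-3p to miR-301a-3p was 0.0186, 0.0221 and 0.0217 in ctrl and 0.0182, 0.0156 and 0.0138 in caNrf2 libraries. These ranges did not overlap, although ctrl library 1 and caNrf2 library 1 were close (log2 difference -0.39, exact permutation p = 0.1, adjusted over the 9 ratios 0.257). The ratio of miR-130b-3p to miR-301a-3p was also lower in every caNrf2 library, 0.159, 0.172 and 0.139 against 0.192, 0.265 and 0.237 in ctrl (log2 difference -0.55, exact permutation p = 0.1, adjusted 0.257).

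The ratio of miR-130b-3p to its relative miR-130a-3p was 0.128 ± 0.0081 in ctrl and 0.105 ± 0.0174 in caNrf2 (SD, n = 3), with overlap through caNrf2 library 2 (log2 difference -0.30, exact permutation p = 0.2, adjusted 0.257). That of miR-130a-3p to miR-301a-3p was 1.81 ± 0.190 and 1.51 ± 0.188, also with overlap (log2 difference -0.26, exact permutation p = 0.2, adjusted 0.257). For the chromosome 16 neighbours there were 10.3, 12.0 and 10.9 counts of miR-130b-3p per count of miR-301b-3p in ctrl and 8.74, 11.1 and 10.1 in caNrf2 libraries, with overlap (log2 difference -0.16, exact permutation p = 0.3, adjusted 0.338). The ratio of miR-301b-3p to miR-130a-3p had a log2 difference of -0.14 (exact permutation p = 0.2, adjusted 0.257). Since the exact permutation test cannot reach the threshold with 3 against 3 libraries, it leaves undecided whether any pair of members changed unequally.

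**Figure D3:**
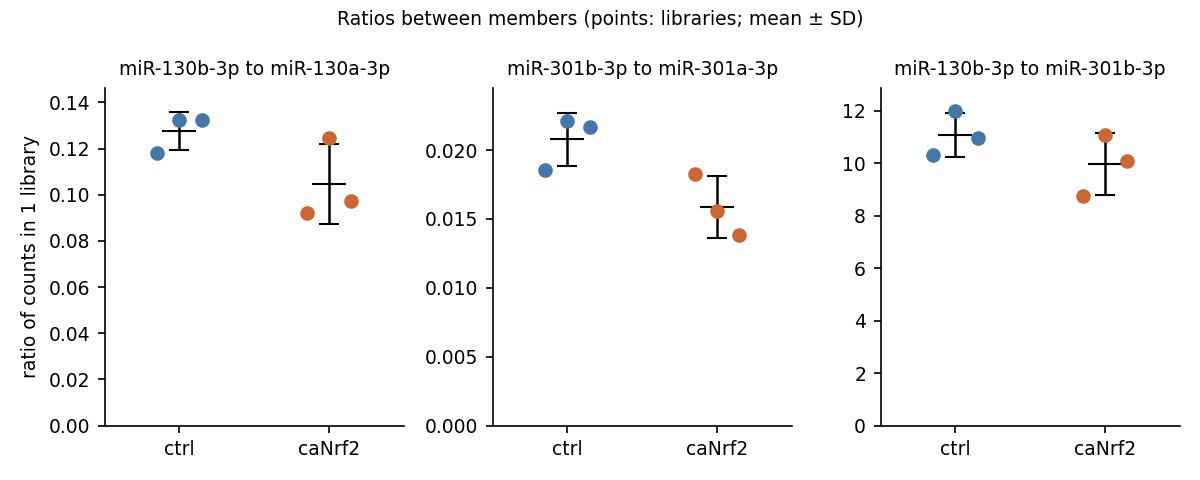
Ratio of the counts of 2 members within 1 library (y axis, from 0, own scale in each panel) in ctrl and caNrf2 libraries, with points for libraries and black bars for mean ± SD. The groups separate for miR-301b-3p to miR-301a-3p and overlap for miR-130b-3p to miR-130a-3p and for the chromosome 16 neighbours.

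Summing the near-identical sequences gave a log2 fold change of -0.36 ± 0.08 (SE) for miR-130a-3p with miR-130b-3p and of -0.08 ± 0.12 (SE) for miR-301a-3p with miR-301b-3p. The sums follow their abundant members, so the second of them cannot show whether miR-301b-3p fell.

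The 5p arms, the passenger strands of the same hairpins, are printed for comparison with the 3p arms, since they tell the near-identical hairpins apart by more bases: miR-301a-5p fits the Mir301b hairpin with 3 mismatches and miR-130a-5p fits the Mir130b hairpin with 7.
miR-130a-5p: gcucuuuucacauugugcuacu
miR-130b-5p: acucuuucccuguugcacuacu
miR-301a-5p: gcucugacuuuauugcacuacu
miR-301b-5p: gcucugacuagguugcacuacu
miR-130b-5p was the best represented, with 55.5, 66.5 and 61.3 CPM in ctrl and 46.9, 49.0 and 43.1 CPM in caNrf2 libraries. The groups did not overlap, and the arm fell with its 3p partner (log2 fold change -0.40 ± 0.12, SE; edgeR adjusted p = 0.0367). This call was lost without any 1 library other than ctrl library 1, at edgeR adjusted p of 0.0947 (ctrl library 2), 0.102 (ctrl library 3), 0.0609, 0.0550 and 0.162 (caNrf2 libraries 1, 2 and 3), and with library totals as the only scaling (0.0569). miR-130a-5p had 3.30 ± 0.366 and 2.92 ± 0.482 CPM in the 2 groups and missed the threshold (-0.16 ± 0.18 on the log2 scale, edgeR adjusted p = 0.561). miR-301a-5p had 9.40 ± 1.14 and 10.1 ± 1.15 CPM and missed it as well (0.12 ± 0.16, edgeR adjusted p = 0.618). miR-301b-5p had 1, 2 and 10 counts in ctrl and 1, 5 and 13 in caNrf2 libraries and was not tested.

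The 3p arm was the main product of every hairpin, but to different degrees. Per count of the 5p arm there were 760 ± 128 counts of the 3p arm for miR-130a, 147 ± 14.8 for miR-301a and 5.19 ± 0.552 for miR-130b in ctrl libraries (SD, n = 3). In caNrf2 libraries these ratios were 689 ± 123, 130 ± 10.6 and 4.45 ± 0.567. The group difference was -0.14 on the log2 scale for miR-130a (exact permutation p = 0.6, adjusted over the 9 ratios 0.6), -0.18 for miR-301a (exact permutation p = 0.2, adjusted 0.257) and -0.23 for miR-130b (exact permutation p = 0.2, adjusted 0.257), and the groups overlapped in all 3. Of the 3 tested 5p arms 1 was called lower, beside 11.6% of all tested miRNAs.

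The family seed occurs in 4 further mature mouse miRNAs of the sequence table: miR-130c, miR-721, miR-6341 and miR-6389. miR-130c had 1 count, in caNrf2 library 2, and the other 3 had none in any library. A count of 0 allows up to 3 counts, or 0.106 to 0.287 CPM depending on the library, for counting error only. The 4 members thus supplied 433175 of the 433176 counts of miRNAs listed here with this seed, miR-301b-3p included. Apart from miR-301b-3p, the seed was read only for the 1623 of 1907 names with a mature sequence, and other names were not checked.

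A second set of miRNAs reads nearly the same letters, moved by 1 base. The first 7 bases of the family, CAGUGCA, form bases 2 to 8 of miR-148a-3p, miR-148b-3p and miR-152-3p, the miRNAs known for targeting DNA methyltransferase and antigen presentation genes.
miR-148a-3p: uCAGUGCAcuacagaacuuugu
miR-148b-3p: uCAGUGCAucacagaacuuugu
miR-152-3p: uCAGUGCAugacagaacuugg
The shift in the other direction, GUGCAAU, formed bases 2 to 8 of no mature sequence of the table. miR-148a-3p had 14326, 14136 and 15936 CPM in ctrl and 9135, 9459 and 10133 CPM in caNrf2 libraries, so that this miRNA alone stood above the summed miR-130 and miR-301 family in every library. It fell without overlap of the groups (log2 fold change -0.63 ± 0.09, SE; edgeR adjusted p = 6.77e-04), as did miR-152-3p, from 306 ± 3.47 to 219 ± 8.27 CPM (-0.48 ± 0.08, edgeR adjusted p = 0.00145). miR-148b-3p had 929 ± 73.0 and 1019 ± 35.5 CPM and missed the threshold (0.13 ± 0.08, edgeR adjusted p = 0.249). In both seed groups, then, some but not all members were called lower, 3 of 4 and 2 of 3, beside 11.6% of all tested miRNAs, and no test compared the groups.

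**Figure D4:**
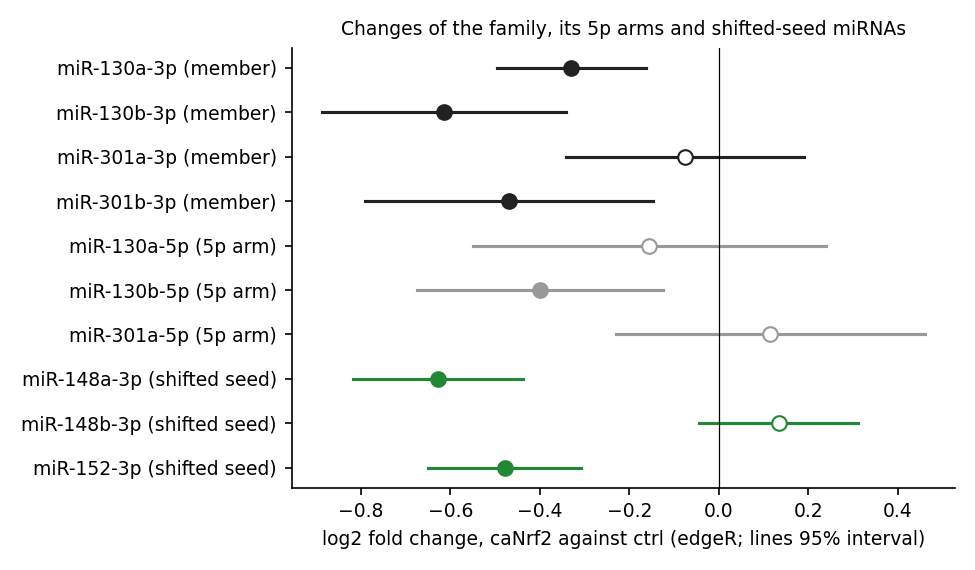
log2 fold change of caNrf2 against ctrl (x axis; edgeR, lines are 95% intervals) for the 4 members, their 3 tested 5p arms and the 3 shifted-seed miRNAs. Filled points passed an adjusted p of 0.05, all of them to the left of 0, and open points, miR-301a-3p among them, did not.

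Patterns over the 6 libraries were compared by the root-mean-square difference of log2 CPM after each miRNA was centred on its own mean, among the 367 miRNAs outside the seed family whose mean reached 10 CPM. miR-130a-3p was closest to miR-16-2-3p (0.016), miR-26a-5p (0.057) and miR-376c-3p (0.057), against a median of 0.218 over all. miR-130b-3p was closest to miR-450a-5p (0.136), miR-148a-3p (0.145) and miR-450b-5p (0.147), against a median of 0.365. miR-301a-3p was closest to miR-101a-3p (0.068), miR-16-1-3p (0.077) and miR-101b-3p (0.083), against 0.254, and miR-301b-3p to miR-196a-2-3p (0.0989), miR-181b-1-3p (0.0999) and miR-30c-5p (0.101), against 0.289. Within the family the closest pair was miR-130a-3p with miR-301b-3p (0.0999), followed by the neighbours miR-130b-3p and miR-301b-3p (0.142), and the farthest was miR-130b-3p with miR-301a-3p (0.321). All these distances share the libraries, their depth and the difference between the groups. They also hold counting error, which weighs more for scarce miRNAs such as miR-16-2-3p (mean 11.5 CPM) and miR-16-1-3p (14.4 CPM). Neither of these was called (edgeR adjusted p = 0.123 and 0.600).

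miRNAs with related roles moved in both directions. Of 22 miRNAs linked to fibrosis, all tested, 4 were higher and 2 lower in caNrf2, with a median log2 fold change of 0.18. Those with the smallest p were the collagen-repressing miR-29c-3p (log2 fold change 0.97 ± 0.11, edgeR adjusted p = 2.28e-04), the muscle miRNA miR-133a-3p (0.72 ± 0.12, 0.00145), miR-199a-5p (-0.51 ± 0.09, 0.00269) and miR-29a-3p (0.36 ± 0.08, 0.0106). The call of miR-29a-3p was lost without caNrf2 library 2 (edgeR adjusted p = 0.0577) or 3 (0.0516). Of 12 growth-restraining miRNAs, 4 were lower and 1 higher, with a median of -0.19. The higher one, miR-29a-3p, also stands in the fibrosis list. So does miR-26a-5p, which was called lower (-0.31 ± 0.10, edgeR adjusted p = 0.0379) and is counted in both lists. Among those that fell were miR-322-5p (-0.72 ± 0.09, edgeR adjusted p = 3.60e-04), miR-503-5p (-0.96 ± 0.15, 0.00129) and miR-15b-5p (-0.47 ± 0.10, 0.00696). Of 12 growth-promoting miRNAs, only miR-17-5p was called over all 6 libraries (0.33 ± 0.09, edgeR adjusted p = 0.0216), a call lost without ctrl library 2 (0.0877) or 3 (0.106) or caNrf2 library 1 (0.0588), 2 (0.0829) or 3 (0.0549), and the median was 0.02. Others of this list passed in single alternatives: miR-31-5p as lower with no filter (-0.38, edgeR adjusted p = 0.0033) and without caNrf2 library 2 (-0.62, 0.0073), miR-20a-5p as higher without ctrl library 1 (0.44, 0.0196) and miR-19b-3p as higher with library totals only (0.28, 0.0487). The 3 lists were called at 27.3%, 41.7% and 8.33%, against 25.7% of all tested miRNAs.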

How the data were processed

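Small RNA was sequenced from total RNA of the 6 libraries, and the column headers carry the same run and lane code for all of them. The deposited values are raw counts of reads per mature miRNA, 1 file per library. Bowtie, CASAVA 1.8, cutadapt, edgeR, featureCounts and the mm10 build are named in the submitters' processing notes, without order or settings. Neither the miRNA annotation release nor the handling of reads that fit several hairpins is given in the sources used here. No molecular identifiers are named, so the counting errors and floors cover counting alone. Sample titles gave the group and the replicate number. A mature sequence was found for 1623 of the 1907 names in the RefSeq table (GRCm38.p6, the same build as mm10).

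All miRNAs were tested together with edgeR (version 4.0.16, R version 4.3.3; filterByExpr, minimum count of 10, TMM, glmQLFit, glmQLFTest with a group term alone, Benjamini-Hochberg adjustment, threshold 0.05). SEs came from the F statistic, 95% intervals from the SE and the fit's degrees of freedom. log2 CPM used a prior count of 2. Alternatives were DESeq2 1.42.0 and limma-voom (limma 3.58.1), scaling by RLE size factors, by totals alone or without the 5 most abundant miRNAs, all miRNAs with a count or those averaging at least 10 CPM, a replicate block, each library left out, thinning to 10443268 counts, and the near-identical pairs summed. The written plan held the ratios within a near-identical pair and between the arms of a hairpin, but not those of members from different pairs. Leaving out each library for the ratios of arms and of members from different pairs was added after seeing the data. The edgeR, limma-voom and DESeq2 tests were first checked on simulated counts. The exact permutation test was not checked in this way. Libraries of 1 group differed from each other by a chi-square of 100.8 or more per degree of freedom, far above sampling noise, and none was counted as a copy.

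The members, lists and rules were chosen with earlier results of these data known. The text names the 4 members, their 5p arms, miRNAs with the same or a 1-base-shifted seed, miRNAs whose hairpin lies within 10 kb, up to 4 of each list by smallest p, and for each member the 3 closest in pattern.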

Additional observations from a re-analysis of the deposited data

How the results depend on the processing

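The falls of miR-130a-3p and miR-130b-3p kept their direction and their call in all 15 alternatives, with log2 fold changes from -0.39 to -0.28 and from -0.78 to -0.54. Without 1 library each, miR-301b-3p ranged from -0.56 to -0.38, and its call was lost in 4 of these 6 fits, in thinned counts (-0.43, edgeR adjusted p = 0.0554) and with the replicate number as a block (-0.47, 0.0558). miR-301a-3p was called in none of its 15 alternatives and ranged from -0.20 to 0.0091 without 1 library each, miR-301a-5p from -0.0032 to 0.20. Replicate numbers did not pair the libraries: the deviations of same-numbered libraries correlated at 0.178, 0.114 and -0.218. With the block, 102 miRNAs were called higher and 87 lower, against 98 and 81, and miR-31-5p was called lower (-0.39, edgeR adjusted p = 0.0116). When the test was limited to a mean of at least 10 CPM, 60 were higher and 71 lower, with fewer miRNAs tested. RLE size factors gave 91 higher and 92 lower. Leaving out 1 library gave 71 to 97 higher and 55 to 82 lower. With miR-22-3p, the most abundant miRNA, taken out of the total, the family held 0.507% of the ctrl and 0.455% of the caNrf2 counts, and without 1 library each 0.405% to 0.436% and 0.348% to 0.358% of all counts. The log2 difference of the miR-130b-3p to miR-130a-3p ratio ran from -0.43 to -0.21 and that of miR-301b-3p to miR-301a-3p from -0.50 to -0.30. Depth limits the 5p arms of miR-130a and miR-301b most, with 33 to 85 and 1 to 13 counts per library.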
